A study of Mus musculus with 10 samples.

Results

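The genes described here are 53 members of 4 families of transcription factors: 15 Sox, 22 Fox, 12 Tbx (with Tbr1 and Eomes, which are T-box genes under other names) and 4 Gata genes. Their DNA methylation was read by reduced representation bisulfite sequencing (RRBS), which enriches CpG-rich restriction fragments and reads unmethylated cytosines as thymines. Testis DNA came from mice of the F2 generation, with 5 libraries in the control group and 5 in the arsenic group. The labels give the generation, the tissue and the group, but no strain, age, dose or treated ancestor, and they do not say that libraries came from separate animals, so a p-value here reflects variation among the 10 libraries, part or all of which may be technical. For each gene, cytosines within 1 kb of either end of the annotated gene were pooled as its ends, and cytosines inside the gene and more than 1 kb from both ends as its body. A gene counted where at least 3 distinct CpGs were covered: 49 of the 53 members counted at their ends, 49 in their bodies, and all 53 in at least 1 of these. Of all genes, 14232 of 21883 protein-coding genes counted at their ends and 14038 in their bodies. Sox13, Tbr1, Tbx18 and Gata3 were not measured at their ends, and Sox18, Foxd3, Foxe1 and Foxe3 were not measured in their bodies.

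These families bind DNA through a shared fold each: the HMG box of Sox factors, the forkhead domain of Fox factors, the T-box of Tbx factors and the zinc fingers of Gata factors. Most members choose or maintain cell fates in the embryo, and many sit in long CpG-rich regions that Polycomb complexes hold silent and unmethylated in cells that do not use the gene. In the testis a few have known work: Sox30 in spermatids, Sox8 beside Sox9 in Sertoli cells, Foxo1 in spermatogonial stem cells and Gata4 in the somatic cells of the cord, while Foxl2 keeps the identity of granulosa cells in the ovary.

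Each of the 10 libraries held read counts at the same 1988759 cytosines, each covered by at least 10 reads in every library. Coverage summed over these cytosines ran from 69771871 in control library 4 to 100355708 in arsenic library 3. In such sums a read that crosses several cytosines counts at each of them. Read numbers a library given below for genes and tiles are sums of this kind. Median coverage ran from 27 to 36 reads in the control libraries and from 35 to 40 in the arsenic libraries. Testis holds germ cells and somatic cells, and in such bulk DNA a change in the share of a cell type and a change of methylation within cells cannot be told apart. As a measure of somatic DNA, 16 genes were listed with ends or regions that carry maternal methylation in somatic cells and none in male germ cells. For 10 of them a window around the gene end with more covered CpGs was measured. That each window holds the methylated region was not checked. Their mean level was 4.95% to 12.2% in the control libraries and 8.05% to 10.1% in the arsenic libraries. The windows did not share 1 level: control means ran from 0.0980% at Inpp5f to 16.3% at Nnat, and Plagl1 reached 27.2% in 1 control library with a control SD of 11.8. The region upstream of H19, methylated in male germ cells, stood at 95.2% ± 2.85 in control and 95.6% ± 2.17 in arsenic (SD, n = 5 each, 3 CpGs). Control library 5 had the highest mean over the members' ends, 10.4%, against 8.05% to 9.04% in the remaining libraries. This was not confined to the members. Over the ends of all measured genes control libraries 5 and 4 had the highest means, 20.86% and 20.37%, against 19.32% to 19.99% in the others. Their mean levels over all cytosines were also the highest, 54.31% and 53.99%, against 53.23% to 53.83%.

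Promoter sequences show how dense in CpGs these genes are. RefSeq (GRCm38.p6, the assembly behind mm10) gave a window of 250 bases before to 50 bases after the start for 37 of the 53 members. A median of 22 CGs lay in 1 window a member, the one nearest its annotated start, against 7 over all 32851 windows of this length. A gene with several starts has several of these windows. This contrast and the next one therefore also hold a difference in the choice of window. The sequence CCGG, which is its own reverse complement and is the cut site of MspI, the enzyme commonly used for RRBS (the enzyme is not given in the sources used here), was in 29 of 37 member windows (78.4%) and in 52.8% of all windows. The 6 windows below were chosen because later results turn on them or because they show the range from sparse to dense coverage. Capitals mark the CpGs that the deposited table covers, and each runs 5′ to 3′ on the gene's strand.
Sox8 (chr17:25570637-25570936, minus strand): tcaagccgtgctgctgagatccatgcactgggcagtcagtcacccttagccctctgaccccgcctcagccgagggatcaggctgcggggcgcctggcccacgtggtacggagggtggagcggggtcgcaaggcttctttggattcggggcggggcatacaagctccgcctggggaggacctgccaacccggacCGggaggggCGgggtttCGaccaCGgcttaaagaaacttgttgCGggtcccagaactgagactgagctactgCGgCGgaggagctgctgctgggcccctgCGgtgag
Sox21 (chr14:118236981-118237280, minus strand): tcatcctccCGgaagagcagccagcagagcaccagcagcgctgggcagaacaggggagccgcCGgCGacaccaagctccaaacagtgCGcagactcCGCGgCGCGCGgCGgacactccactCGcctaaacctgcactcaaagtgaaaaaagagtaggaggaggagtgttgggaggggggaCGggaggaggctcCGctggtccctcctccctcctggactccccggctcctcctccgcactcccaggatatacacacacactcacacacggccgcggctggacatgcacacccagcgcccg
Foxa2 (chr2:148046920-148047219, minus strand): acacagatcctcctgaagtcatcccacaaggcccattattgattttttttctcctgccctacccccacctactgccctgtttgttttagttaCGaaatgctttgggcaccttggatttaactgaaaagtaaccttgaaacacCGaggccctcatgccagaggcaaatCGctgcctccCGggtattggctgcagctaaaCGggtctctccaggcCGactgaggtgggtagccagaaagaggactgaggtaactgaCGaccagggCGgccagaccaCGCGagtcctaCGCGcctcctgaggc
Foxp1, an internal start (chr6:99028249-99028548, minus strand): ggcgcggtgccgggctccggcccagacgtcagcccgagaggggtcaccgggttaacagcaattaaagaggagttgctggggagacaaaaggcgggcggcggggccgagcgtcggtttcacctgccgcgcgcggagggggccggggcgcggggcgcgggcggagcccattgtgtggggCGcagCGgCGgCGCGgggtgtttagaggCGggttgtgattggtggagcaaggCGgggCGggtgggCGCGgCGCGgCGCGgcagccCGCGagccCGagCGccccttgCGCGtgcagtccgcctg
Tbx6 (chr7:126781233-126781532, plus strand): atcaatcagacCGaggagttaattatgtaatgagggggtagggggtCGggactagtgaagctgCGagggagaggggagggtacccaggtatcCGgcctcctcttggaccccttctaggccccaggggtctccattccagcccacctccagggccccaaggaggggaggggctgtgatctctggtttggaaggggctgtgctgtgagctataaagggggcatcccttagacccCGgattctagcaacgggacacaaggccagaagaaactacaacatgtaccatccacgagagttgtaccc
Gata2 (chr6:88193641-88193940, plus strand): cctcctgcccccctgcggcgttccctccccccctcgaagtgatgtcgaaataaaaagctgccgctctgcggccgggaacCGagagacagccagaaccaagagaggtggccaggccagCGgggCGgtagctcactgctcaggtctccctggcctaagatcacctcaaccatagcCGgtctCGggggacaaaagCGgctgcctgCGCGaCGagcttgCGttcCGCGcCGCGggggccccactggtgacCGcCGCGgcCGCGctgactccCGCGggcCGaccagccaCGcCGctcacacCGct
The table covered 8 of 21 CpGs in the Sox8 window, 13 of 22 in Sox21, 12 of 12 in Foxa2, 20 of 44 in Foxp1, 5 of 7 in Tbx6 and 25 of 32 in Gata2, so a level describes the covered CpGs only. The mean level over the 10 libraries was 2.06% in the Sox8 window, 1.83% in Foxa2 and 2.74% in Gata2, and 18.5% in Tbx6. With 1 window a gene, the one nearest the annotated start, 17 members had at least 3 covered CpGs. Their median level was 2.31%, and 16 of the 17 were under 10%, the exception being Tbx6, which specifies paraxial mesoderm.

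The ends of these genes were mostly unmethylated. Of the 49 measured members, 38 had a mean level under 10% over the 10 libraries, where 62.3% of all measured genes did, and 5 reached 20% or more, where 27.6% of all genes did. The median member stood at 4.15% and the median gene at 4.69%. Among the Sox genes, the neural Sox1, Sox14 and Sox21, the SoxC genes Sox4 and Sox11, and Sox7, Sox17 and Sox18 of endothelium and endoderm ranged from 0.303% to 4.15%, and Sox5, Sox6 and Sox10 from 2.36% to 4.01%. Sox1 rested on 3 CpGs and 55 to 118 reads a library, summed over its cytosines. The 9 libraries without a methylated read allow levels of up to 2.54% to 5.46% (3 counts of the total, counting error only). These limits take the counts as independent. Neighbouring cytosines share reads, so the true limits are higher. Sox12 stood at 9.98%, the spermatid factor Sox30 at 19.1% and Sox8 at 70.7%.

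Fox ends were low across their roles. The endoderm pioneers Foxa1, Foxa2 and Foxa3 had 2.73%, 6.38% and 4.43%, and the mesenchymal Foxc1, Foxc2, Foxf1 and Foxf2 had 2.70%, 8.61%, 8.40% and 4.499%. Foxl2 stood at 2.34% from 89 CpGs and Foxd2 at 1.27% from 59 CpGs. In all, 19 of 22 Fox ends lay under 10%, the 10 not named in this paragraph ranging from 2.01% to 9.26%. Foxo3 stood at 11.3%. Foxj1, the regulator of motile cilia, reached 25.1% and the repressor Foxp4 20.3%.

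Tbx ends were spread more widely, with 4 of 10 under 10%. Eomes, Tbx2, Tbx20 and Tbx15 lay between 2.30% and 4.18%, and Tbx3, Tbx5, Tbx21 and Tbx6 between 12.4% and 19.8%. Tbx1 of the pharyngeal arches stood at 26.3% and Tbx4 of the hindlimb at 40.1%. The 3 measured Gata ends were Gata5 at 2.003%, Gata6 at 3.71% and the blood stem cell factor Gata2 at 6.67%.

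**Figure D1:**
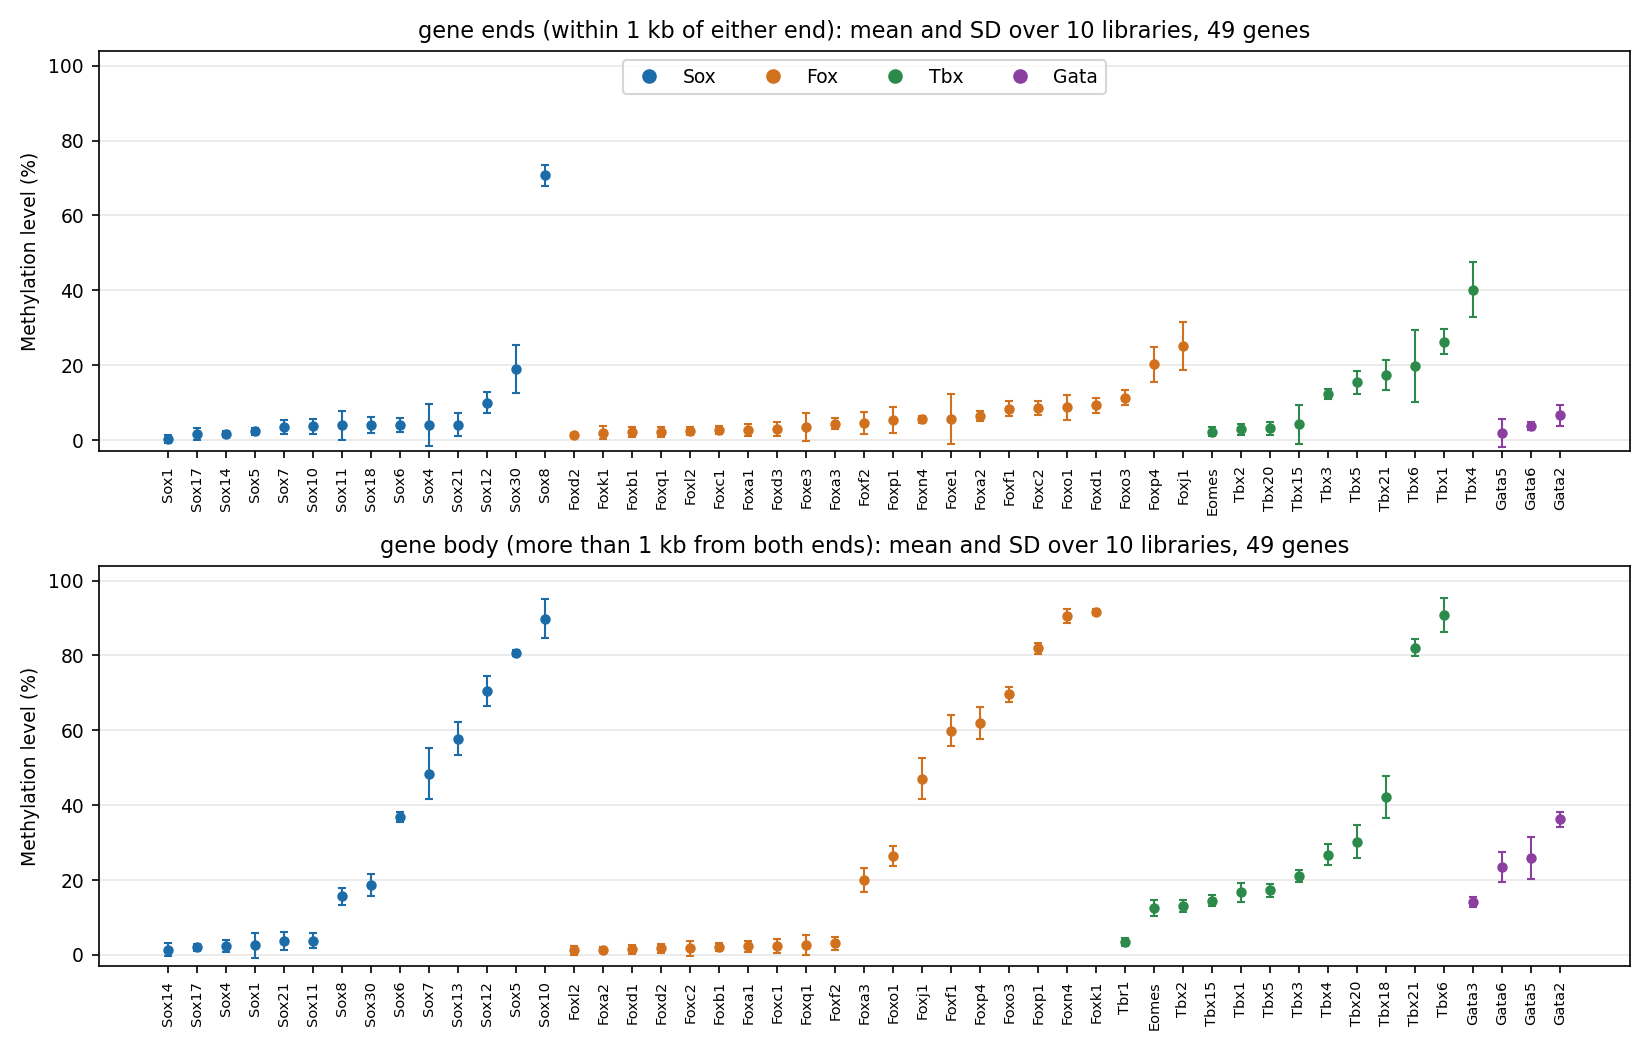
Methylation level (%) of the measured members at their ends (top, 49 genes) and in their bodies (bottom, 49 genes), 1 point a gene with the mean and SD over the 10 libraries, coloured by family and ordered by level within it. Most ends lie under 10% with Sox8 at 70.7% apart, while bodies run from 1.21% to 91.7%.

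Of the 5 members at 20% or more, Sox8, Tbx4 and Foxp4 were high at the far end and lower at the start. Tbx1 was measured at its far end alone, and no strand was available for Foxj1. Strand was available for 37 members; among them 32 starts and 16 far ends had at least 3 CpGs within 1 kb. Of the 32 starts 28 were under 10%, with a median of 3.21%, where 82.2% of 10289 starts of all genes were under 10%, with a median of 2.735%. Of the 16 far ends 7 were under 10% and 6 were at 50% or more, with a median of 24.5%.

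Sox8, which acts beside Sox9 in Sertoli cells, had 3.73% ± 2.06 (SD, n = 5) at its start in control and 4.06% ± 2.81 in arsenic. Its far end (16 CpGs) stood at 87.8% ± 1.18 and 88.0% ± 1.31. The same step from start to far end was found in Sox12 (2.23% and 63.1% over the 10 libraries), Foxo1 (3.24% and 89.4%), Foxo3 (2.48% and 92.7%) and Foxn4 (3.29% and 91.3%). Tbx4 had 14.8% at its start and 93.5% at its far end. These far ends rested on 3 to 16 CpGs.

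In short genes, whose windows can share cytosines, both ends could be low. Sox14 (2065 bp) had 1.64% at its start and 1.59% at its far end, Foxe3 (1625 bp) 3.57% and 3.97%, and Foxd3 (2373 bp) 2.98% and 2.74%. For 16 members no strand was available, and their ends are named by coordinate. The lower end of Foxj1 stood at 84.0% and its upper end at 1.76%. Tbx3 had 1.24% at its lower and 46.5% at its upper end, and Foxf1 3.28% and 68.7%. The starts of 10% or more were those of Sox30 (19.1%), Tbx4 (14.8%), Tbx6 (19.8%) and Tbx21 (17.4%), the last being the T-bet factor of helper T cells.

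**Figure D2:**
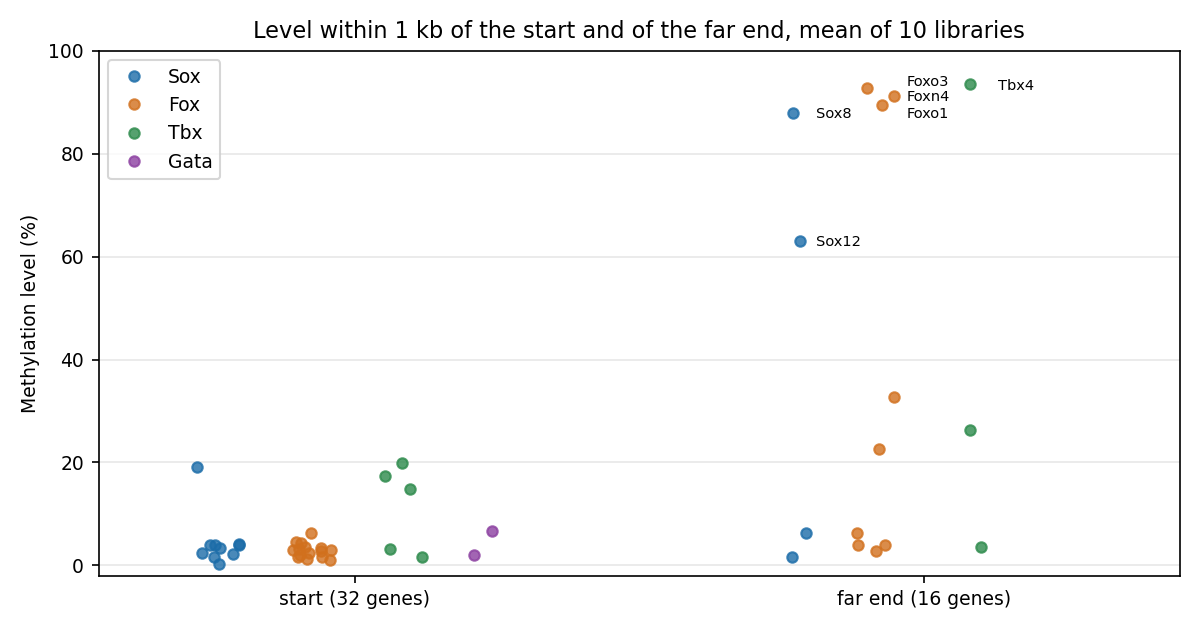
Methylation level (%) within 1 kb of the start (32 genes) and of the far end (16 genes) of members whose strand is known, 1 point a gene with the mean of the 10 libraries, spread sideways for legibility. Starts lie between 0.303% and 19.8%, and 6 far ends lie at 50% or more.

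Bodies of these genes were far less methylated than gene bodies in general. Of the 49 measured, 26 had a mean level under 20%, where 9.34% of all measured bodies did, and 7 were at 80% or more, where 53.5% of all bodies were. The median was 18.8% for the members and 82.3% for all genes. Many members are short, and a body here begins 1 kb inside the gene, so distance from the gene end is part of this contrast and is given below.

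In the Sox family the bodies of Sox1, Sox4, Sox11, Sox14, Sox17 and Sox21 lay between 1.47% and 3.84%, and those of Sox8 and Sox30 at 15.7% and 18.8%. The SoxD genes, which lack an activation domain of their own, were higher: Sox6 at 36.9%, Sox13 at 57.8% and Sox5 at 80.6%. Sox7 stood at 48.4% and Sox12 at 70.5%. Sox10 of the neural crest reached 89.9% from 11 CpGs.

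Of the 19 measured Fox bodies 10 were under 10% and 8 at 20% or more. The low bodies were those of Foxa1, Foxa2, Foxb1, Foxc1, Foxc2, Foxd1, Foxd2, Foxf2, Foxl2 and Foxq1, at 1.21% to 3.09%. Foxa3 lay between them at 19.97%. Above it were Foxo1 at 26.4%, Foxj1 at 47.1%, Foxf1 at 59.9%, Foxp4 at 61.9%, Foxo3 at 69.6%, Foxp1 at 81.9%, Foxn4 at 90.5% and Foxk1 at 91.7%. Foxo1 and Foxo3 are regulated by insulin signalling, Foxp1 and Foxp4 are repressors of broad expression, and Foxj1 and Foxn4 have narrow roles in cilia and in the retina and spinal cord.

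Among the Tbx genes Tbr1 of cortical neurons had the lowest body at 3.42%. Eomes, Tbx2, Tbx15, Tbx1 and Tbx5 followed at 12.5% to 17.3%, and Tbx3, Tbx4 and Tbx20 at 21.0% to 30.3%. Tbx18 stood at 42.1%, Tbx21 at 82.1% and Tbx6 at 90.8%, the last from 3 CpGs. The Gata bodies lay at 14.3% in Gata3, 23.4% in Gata6, 25.9% in Gata5 and 36.2% in Gata2.

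Levels by distance from the nearest gene end differed between the families. Levels by distance are means over the cytosines of a family or gene, each weighted equally, so large genes weigh more in a family. They differ in this from the levels of ends and bodies, which pool reads. In the first 500 bp inside the nearest gene end the control mean was 8.45% ± 0.706 over all genes, 5.68% ± 1.57 over Fox, 4.43% ± 2.38 over Gata, 14.6% ± 0.804 over Sox and 24.2% ± 1.37 over Tbx genes. This bin joins starts and far ends, and its genes differed. Over the 10 libraries Tbx1 stood there at 46.7% (11 CpGs), Tbx3 at 82.2% (4 CpGs) and Tbx4 at 93.7% (4 CpGs). Tbx2, Tbx5, Tbx21 and Eomes stood at 2.29% to 3.26%. Sox8 stood at 74.1% (14 CpGs), and the other Sox genes with at least 3 CpGs there were under 10%. In cytosines 2 to 5 kb inside the nearest gene end, the control mean was 56.8% ± 0.427 (SD, n = 5) over all genes, 41.7% ± 1.03 over Fox, 24.7% ± 2.09 over Sox, 23.5% ± 0.329 over Gata and 16.4% ± 1.18 over Tbx genes. From 5 to 10 kb inside it was 68.9% ± 0.411 over all genes, 91.7% ± 1.41 over Fox, 30.3% ± 1.71 over Tbx, 20.3% ± 2.19 over Sox and 9.98% ± 1.82 over Gata genes. Of the Sox genes in this bin, Sox6 stood at 6.24% from 120 CpGs over the 10 libraries, Sox13 at 29.4% and Sox5 at 58.8%. Beyond 10 kb the Fox and Sox genes stood at 83.7% ± 1.03 (5 genes) and 81.5% ± 0.476 (3 genes), above the 74.4% ± 0.384 of all genes. The Tbx genes stood at 21.7% ± 0.435 (4 genes) and the Gata genes at 37.9% ± 3.71 (2 genes). The arsenic libraries had 83.9%, 81.5%, 21.5% and 36.4% in the same order.

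Within these deep bins the genes differed. Tbx15, which patterns skin and skeleton, had 8.03% ± 1.24 in control and 8.65% ± 0.666 in arsenic over 105 CpGs beyond 10 kb. Tbx5 of the heart and forelimb had 25.3% ± 0.464 and 24.7% ± 0.692 over 179 CpGs. Tbx4 and Tbx20 were methylated there, at 95.3% (8 CpGs) and 93.4% (3 CpGs) over the 10 libraries, so the low pooled level of the Tbx family there was that of Tbx5 and Tbx15. Gata3 stood at 29.1% (54 CpGs) and Gata6 at 91.7% (7 CpGs). All Fox genes measured there were at 63.8% or more, and Sox6, Sox13 and Sox5 at 70.5%, 80.4% and 83.6%.

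**Figure D3:**
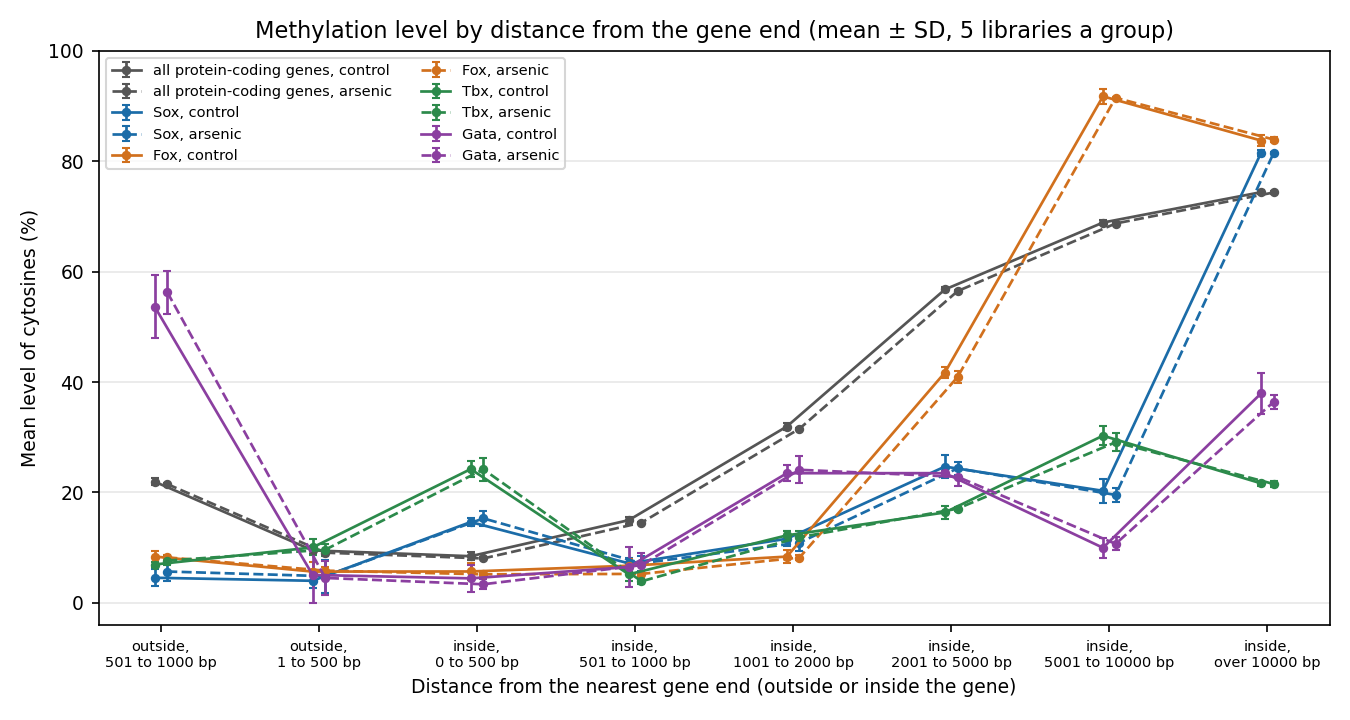
Mean methylation level of cytosines (%) by distance from the nearest gene end, outside and inside the gene, for all protein-coding genes and each family, with control as solid and arsenic as dashed lines and bars as SD over 5 libraries. Beyond 10 kb the Fox and Sox lines lie above 80% and the Tbx lines near 22%; Gata bins hold 1 to 4 genes, and the one farthest outside rests on 2 cytosines.

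Long unmethylated stretches lay in several members. Counting consecutive covered CpGs whose mean level was under 20%, the longest stretch was 10918 bp with 225 CpGs in Gata3 (chr2:9874562-9885479), the T cell factor. It was 9781 bp with 157 CpGs in Sox6 (chr7:116030936-116040716), 9081 bp with 100 CpGs in Tbx15 (chr3:99252541-99261621) and 6775 bp with 23 CpGs in Tbx3 (chr5:119674239-119681013). The stretch of Tbx15 lay inside the gene, over 10 kb from its ends. The median longest stretch was 1759 bp in Sox, 2594 bp in Fox, 3740 bp in Tbx and 5248 bp in Gata genes. Stretches are bounded by what RRBS covered, and CpGs between covered ones were not measured. They were also sought only within a gene and 1 kb beyond its ends, so a short gene could not hold a long one. Gene length is therefore part of the contrast between families.

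All covered CpGs were under 20% in 15 members, 6 Sox and 9 Fox genes and none of the Tbx or Gata genes. Of the covered CpGs 80.5% in Tbx and 80.6% in Gata genes were under 20%, against 59.9% in Sox and 64.8% in Fox genes. These shares and the tile shares below pool the genes of a family, so large genes weigh more. Sox5 held 503 of the 1637 Sox CpGs and 366 of the 496 Sox CpGs at 80% or more. Foxp1 held 567 of the 2912 Fox CpGs and 388 of the 860 Fox CpGs at 80% or more. In 1 kb tiles with at least 3 CpGs, 51.5% of 103 Tbx tiles and 53.7% of 41 Gata tiles were under 10%, against 27.9% of 154 Sox tiles, 30.8% of 224 Fox tiles and 14.6% of all 166012 tiles. Tiles at 80% or more made up 46.8% of Sox, 54.0% of Fox, 15.5% of Tbx and 19.5% of Gata tiles, and 59.9% of all tiles. Windows of Foxa1, Foxa3, Foxj1 and Tbx6 also hold parts of another protein-coding gene, so their values are not those of the member alone.

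The families were compared within each library, since members are not replicates of a family. At the ends the mean over members was 14.1% ± 1.298 (SD, n = 5) for Tbx in control and 14.8% ± 0.732 in arsenic, 9.41% ± 0.558 and 9.59% ± 0.612 for Sox, 6.97% ± 0.950 and 6.24% ± 0.358 for Fox, and 4.53% ± 2.35 and 3.73% ± 0.943 for Gata. The Tbx mean was above each of the other means in 10 of 10 libraries. The gap from Tbx to Gata was 10.3 percentage points on average and ranged from 6.88 to 12.5. By the median over members Tbx was also above the others in 10 of 10 libraries, while Sox was above Fox in 10 libraries by the mean and in 3 by the median, the Sox mean holding Sox8.

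In bodies the order depended on the summary. By the mean, Sox (31.2% ± 1.23 in control), Tbx (31.0% ± 0.979) and Fox (30.2% ± 0.872) were close, and Gata (25.0% ± 2.70) was below each of them in 10 of 10 libraries. By the median Gata was above the other families in 10 of 10 libraries and Fox the lowest in 10. The Gata bodies thus lay in the middle of a range whose ends were filled by Sox, Fox and Tbx genes. No test was made, since the members were chosen with earlier results known.

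**Figure D4:**
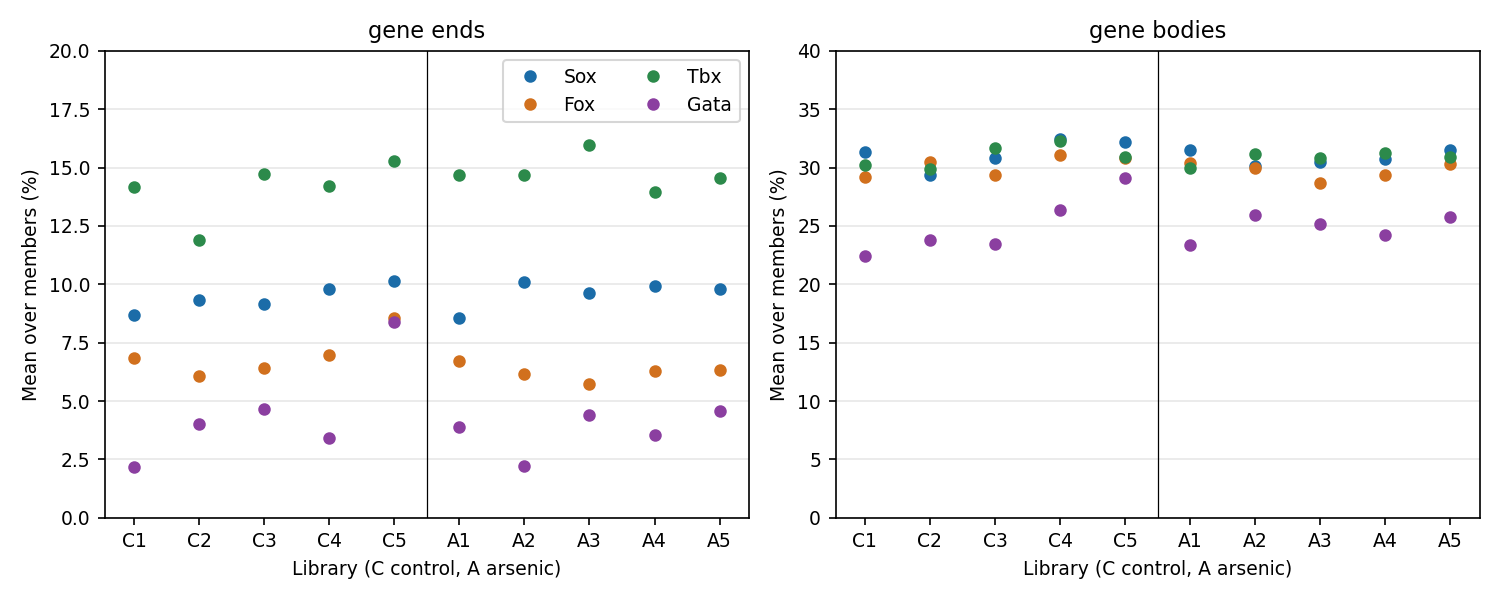
Mean level over measured members (%) of each family in each library, at gene ends (left) and in gene bodies (right); C1 to C5 are the control and A1 to A5 the arsenic libraries, whose order has no meaning. At the ends Tbx lies above the other families in all 10 libraries, and in bodies Gata lies below them.

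The main comparison asked whether members differed between control and arsenic libraries. A quasi-binomial logistic model was fitted to the reads of every gene, with Benjamini-Hochberg adjustment over all genes, and a call needed both a change of 10 percentage points or more and an adjusted p under 0.05. At the ends 0 of 49 members were called, as were 0 of 14232 genes (0%), and the lowest adjusted p of a member was 0.829. An unadjusted p under 0.05 was found in 4 members, 3 higher (Foxo1, Eomes and Tbx6) and 1 lower (Foxd3) in arsenic, where 5.97% of all ends had one, 1.61% higher and 4.36% lower. The groups overlapped in every member, and did not in 0.927% of all ends. Limma on log2 ratios called 0 members and 1 gene (0.00703%), and gave 3 members an unadjusted p under 0.05, where 5.07% of all ends had one. The arsenic mean was higher in 20 and lower in 29 members, where it was higher in 41.4% and lower in 58.5% of all genes. Over the 49 members the mean was 8.96% ± 0.860 in control and 8.78% ± 0.0795 in arsenic. Without control library 5 the control mean was 8.61%, below the arsenic mean.

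Eomes (chr9:118478186-118486132), a T-box gene of trophoblast, endoderm and cytotoxic T cells, had levels of 2.58%, 1.18%, 1.28%, 1.20% and 1.34% at its ends in control libraries 1 to 5. In arsenic libraries 1 to 5 the levels were 4.33%, 1.66%, 4.26%, 1.88% and 3.27%. Control library 1 lay above arsenic libraries 2 and 4, and the other controls lay below all arsenic libraries. The means were 1.52% ± 0.598 and 3.08% ± 1.27 (SD, n = 5), with an adjusted p of 0.829.

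Tbx6 (chr7:126781483-126785548) had 12.6%, 15.8%, 21.7%, 15.1% and 7.99% in the control libraries. The arsenic libraries had 11.4%, 39.0%, 26.5%, 31.0% and 17.2%. Arsenic libraries 2, 3 and 4 lay above all controls, and libraries 1 and 5 lay within their range. The read-weighted difference of 11.02 percentage points was larger than that of any other member named here at its ends, but rested on 8 CpGs and had an adjusted p of 0.829. Its covered CpGs include the 5 in capitals in the window printed above.

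Foxo1 (chr3:52268337-52350109) had 7.61%, 6.33%, 6.79%, 6.12% and 7.04% in control. In arsenic it had 17.02%, 7.54%, 11.1%, 7.60% and 10.3%. Arsenic library 1 was the highest of the 10, and arsenic libraries 2 and 4 lay just under control library 1. The difference of 3.79 points (adjusted p = 0.829) was 2.17 points without arsenic library 1. Foxo1 marks spermatogonial stem cells. Its start alone had 2.34% ± 1.40 in control and 4.14% ± 2.64 in arsenic. Its far end (4 CpGs) had 88.4% ± 5.77 and 90.4% ± 2.10. At each end alone the difference between these means was smaller than the pooled difference. The pooled level also depends on the share of reads from each end, and the part this plays was not tested.

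Foxd3 (chr4:99656299-99658671), which keeps neural crest and stem cells undifferentiated, was lower in arsenic. Its control levels were 2.93%, 3.18%, 1.499%, 5.39% and 6.63%, and its arsenic levels 1.49%, 1.77%, 1.37%, 3.501% and 1.41%. The 2 highest values were those of control libraries 4 and 5, and the groups overlapped. The difference of -1.84 points (adjusted p = 0.832) was -0.633 without these 2 libraries and -0.205 with cytosines of at least 20 reads in every library.

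The other members with the smallest p in their families did not reach an unadjusted 0.05. Sox21, a neural repressor, had 2.70% ± 0.667 in control and 5.61% ± 4.06 in arsenic, and arsenic library 5 alone stood at 12.8%, with the other 4 at 3.18% to 4.97%. Sox12 had 8.81% ± 2.46 and 11.1% ± 2.98, and Sox4 2.21% ± 2.14 and 5.94% ± 7.49, where arsenic library 4 stood at 18.6%. Without that library the Sox4 difference of 3.88 points was 0.272.

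Foxa2 had 5.56% ± 1.09 in control and 7.19% ± 1.217 in arsenic, and Tbx15 5.88% ± 7.08 and 2.48% ± 2.20. For Gata6 the levels were 3.99% ± 1.58 and 3.44% ± 0.505. Gata5, a factor of endoderm and heart, had 2.69% ± 5.40 and 1.32% ± 1.17, with 12.3% in control library 5 against at most 1.11% in the other controls. The zero counts of Gata5 in control libraries 1, 3 and 4 and arsenic library 1 allow levels of up to 0.655% to 1.74%. These limits too take counts at neighbouring cytosines as independent and are therefore too low. Without control library 5 the differences of Gata5 and Gata6 changed sign.

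Among the remaining members the SD over the 10 libraries was largest in Tbx4 (7.37) and Foxe1 (6.61), after Tbx6 (9.70). Foxe1, a thyroid factor, ranged from 0.730% to 21.1% in control and from 0.369% to 8.78% in arsenic. The ends at 20% or more showed differences within the spread of libraries: Sox8 had 70.9% ± 3.76 and 70.5% ± 1.86, Tbx4 42.5% ± 9.39 and 37.8% ± 4.47, and Tbx1 25.7% ± 3.20 and 26.8% ± 3.66. Foxj1 had 26.3% ± 6.82 and 23.9% ± 6.47, and Foxp4 21.2% ± 5.67 and 19.4% ± 3.77.

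**Figure D5:**
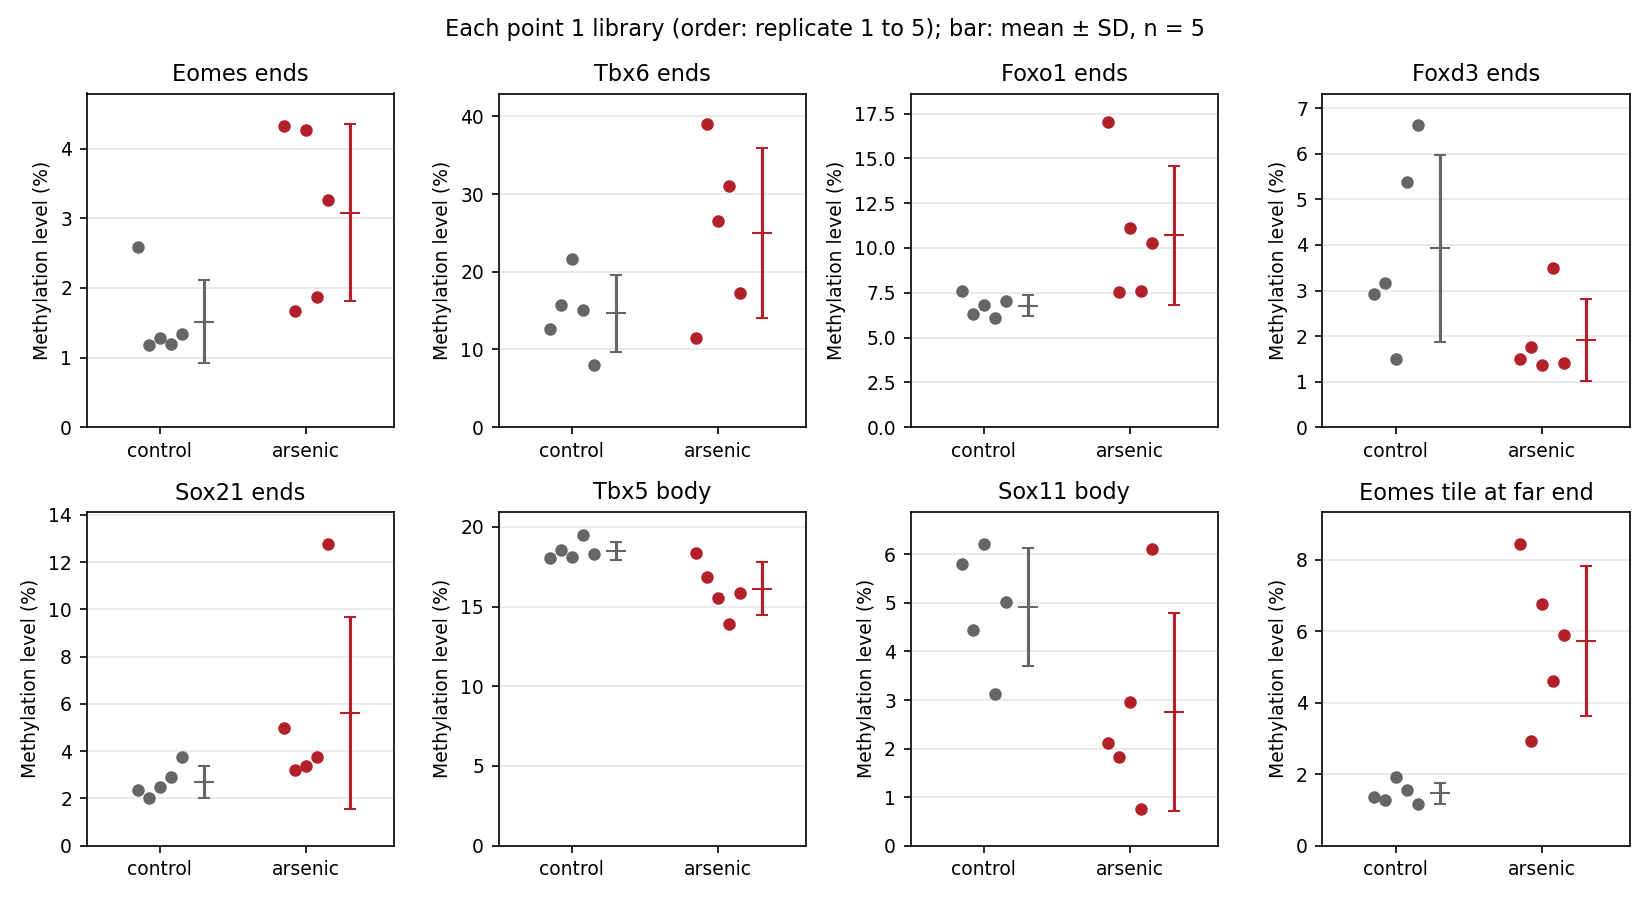
Methylation level (%) in each library at the ends of Eomes, Tbx6, Foxo1, Foxd3 and Sox21, in the bodies of Tbx5 and Sox11, and in the 1 kb tile at the far end of Eomes; points are libraries and bars the mean and SD of 5. Of the 8 panels, the groups do not overlap in the Eomes tile alone, and arsenic library 5 stands at 12.8% at the Sox21 ends.

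In bodies 0 of 49 members were called, as were 0 of 14038 genes (0%), with a lowest adjusted p of 0.847 among members. An unadjusted p under 0.05 was found in 2 members, Tbx5 and Sox11, both lower in arsenic, where 5.45% of all bodies had one, 2.01% higher and 3.44% lower. No member had groups without overlap, where 0.798% of all bodies did. Limma called 0 genes and gave 3 members an unadjusted p under 0.05, where 4.94% of all bodies had one. The arsenic mean was lower in 34 and higher in 15 members, where it was lower in 53.9% and higher in 46.1% of all genes. The mean over members was 30.3% ± 0.912 in control and 29.9% ± 0.347 in arsenic, and 29.98% in control without library 4.

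Tbx5 (chr5:119796514-119885220) had 18.1%, 18.6%, 18.1%, 19.5% and 18.3% in the control libraries over 235 CpGs. The arsenic libraries had 18.4%, 16.9%, 15.6%, 13.9% and 15.9%. Arsenic library 1 lay inside the control range, and the other arsenic libraries lay below it. The difference was -2.44 points (adjusted p = 0.847), from 10383 to 16256 reads a library, and was between -2.92 and -1.87 with any 1 library left out. With cytosines of at least 20 reads in every library the difference was -0.640. The difference also depended on weighting by reads. With cytosines weighted equally, the 179 CpGs beyond 10 kb had 25.3% ± 0.464 in control and 24.7% ± 0.692 in arsenic. From 5 to 10 kb (44 CpGs) the levels were 15.2% ± 1.92 and 13.7% ± 0.770. Both differences were smaller than the read-weighted one.

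Sox11 (chr12:27334268-27342718), a SoxC gene of neurons, had 5.81%, 4.45%, 6.21%, 3.12% and 5.03% in control. In arsenic it had 2.12%, 1.83%, 2.95%, 0.757% and 6.10%. Arsenic library 5 lay among the highest controls, and the other 4 arsenic libraries lay below all controls. The difference was -2.30 points (adjusted p = 0.914).

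The next members in each family had small differences. Sox5 had 81.1% ± 0.801 and 80.1% ± 0.810 in control and arsenic, Sox17 2.47% ± 0.929 and 1.601% ± 1.03, and Foxk1 91.3% ± 0.665 and 92.1% ± 0.562. Foxf2 had 2.20% to 6.50% in control and 0.459% to 3.64% in arsenic. Foxd2 had 1.05% ± 0.624 and 2.44% ± 1.51, Tbx15 13.9% ± 1.19 and 15.1% ± 1.72, and Tbx21 81.3% ± 2.47 and 82.8% ± 1.92. Gata2 had 35.7% ± 2.09 and 36.7% ± 2.06, and Gata6 24.0% ± 4.35 and 22.9% ± 4.11. None of these had an unadjusted p under 0.05. The largest SD over the 10 libraries was found in Sox7 (6.81), Tbx18 (5.59) and Foxj1 (5.58).

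The 1 kb tiles show where within or just beside a gene a difference lay. Of these, 0 of 522 member tiles and 0 of 166012 tiles (0%) were called. An unadjusted p under 0.05 was found in 35 member tiles (6.70%), 21 higher and 14 lower, where 5.8% of all tiles had one, 2.47% higher and 3.34% lower. The groups did not overlap in 5 member tiles, 3 higher and 2 lower, where they did not in 0.83% of all tiles, 0.348% higher and 0.482% lower. Limma called 0 member tiles and 1 tile in all (0.000602%).

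The tile over the far end of Eomes (chr9:118486001-118487000) had the smallest p of the member tiles, 8.67e-05, with an adjusted p of 0.615. Its control libraries had 1.37%, 1.28%, 1.92%, 1.55% and 1.18%. Its arsenic libraries had 8.44%, 2.93%, 6.75%, 4.62% and 5.88%. Every arsenic library lay above every control, and the means were 1.46% ± 0.290 and 5.72% ± 2.09 (SD, n = 5), from 15 CpGs and 951 to 1538 reads a library. The covered cytosines of the tile lay at 118486642 to 118486865, outside the gene and beyond its annotated end at 118486132. The start of Eomes had 1.48% ± 0.896 and 1.86% ± 1.219, a smaller difference than at the far end.

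The methylated reads behind this tile were few. On the plus strand the 15 cytosines of the tile had a median of 0 methylated reads in each control library. In arsenic libraries 1 to 5 the medians were 2, 1, 2, 3 and 3 methylated reads, and at least 13 of the 15 cytosines had 1. Neighbouring cytosines share reads, so these counts are not independent and few reads underlie them. On the minus strand the medians were 2, 0, 3.5, 1 and 0 in arsenic and 0 or 1 in control.

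The next 3 tiles by p among those higher in arsenic lay in Gata2, Foxl2 and Foxo1. In Gata2 (chr6:88200001-88201000, 6032 bp from the nearest gene end) libraries averaged 20.3% ± 3.09 among controls and 25.6% ± 1.33 in arsenic, with 24.3% in control library 2 above 24.1% in arsenic library 3. In Foxl2 (chr9:98955001-98956000, over its start) it was 0.432% ± 0.238 and 2.81% ± 2.19, arsenic library 1 lying among the controls at 0.412%. In Foxo1 (chr3:52267001-52268000, upstream of its start) it was 0.684% ± 0.667 and 4.03% ± 3.06, with 9.24% in arsenic library 1. The adjusted p was 0.807 for each of these 3.

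Of the tiles lower in arsenic, both with the smallest p lay in Tbx5. In the first (chr5:119835001-119836000) controls averaged 4.29% ± 2.45 and arsenic libraries 0.897% ± 0.518, and the groups overlapped. In the second (chr5:119847001-119848000) it was 85.15%, 88.0%, 87.5%, 87.0% and 88.5% in control. The arsenic libraries had 79.3%, 82.0%, 77.2%, 83.0% and 85.08%, all below the lowest control though arsenic library 5 only just, with an adjusted p of 0.807. A tile over the start of Sox8 had 3.72% ± 4.07 and 0.256% ± 0.241, with control libraries 1 and 3 at 7.77% and 8.29%. A tile deep in Foxp1 (chr6:99301001-99302000) had 96.0% ± 1.63 and 92.2% ± 2.57.

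The other tiles without overlap lay beside Foxo3 and inside Sox5 and Gata3. The first, chr10:42180001-42181000, lay outside Foxo3, beyond its far end, and had 83.5% ± 3.41 in control and 76.8% ± 2.30 in arsenic. Sox5 (chr6:144050001-144051000) had 63.5% ± 2.47 and 67.1% ± 1.03, and Gata3 (chr2:9871001-9872000) had 86.3% ± 2.47 and 90.3% ± 1.77. Their adjusted p was 0.849, 0.867 and 0.890.

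Single libraries stood apart at a few promoters, a pattern looked at after the values were seen. In the Sox21 window printed above, 8 libraries had 0.192% to 1.295%, arsenic library 4 had 7.10% and arsenic library 5 had 38.3%. On the plus strand the 11 cytosines of arsenic library 5 had 7.41% to 60% methylated reads, with a median of 50%, and on the minus strand the 12 cytosines had a median of 39.1%. Arsenic library 4 had a median of 23.1% on the plus strand, and at 11 of its 12 minus-strand cytosines no methylated read.

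The internal Foxp1 start printed above lies 494448 bp inside the gene from its annotated start, in a body at 81.9%. In 9 of the 10 libraries its 20 CpGs had at most 0.853%. Control library 4 stood at 49.7%, with a median of 16 methylated reads per cytosine from 25 to 32 reads. In the Gata2 window control library 3 had 11.2% and control library 4 6.48%, and the other libraries had 0.125% to 5.94%. Reads carry no molecular identifiers in these counts, so whether a few copied fragments gave these levels was not tested.

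Other genes of the 4 families and their partners, 41 in all, were measured beside the members. At their ends 30 were measured and 0 called, with a median level of 2.64%. An unadjusted p under 0.05 was found in 3 of 30, all lower in arsenic, where 5.97% of all ends had one, 4.36% lower: Sox3 (4.89% ± 6.16 and 0.159% ± 0.356), Foxl1 (14.8% ± 2.79 and 11.4% ± 1.20) and the Sertoli factor Sox9 (3.80% ± 3.32 and 1.58% ± 1.11), which was named after its value was seen. Their adjusted p was 0.783, 0.829 and 0.829. In bodies 28 were measured, 0 were called and 0 had an unadjusted p under 0.05, the smallest being that of Gata4, a Sertoli and Leydig cell factor, at 32.3% ± 0.822 in control and 30.6% ± 1.64 in arsenic, then Foxl1 at 5.87% ± 1.74 and 3.23% ± 2.34.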

How the data were processed

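RRBS libraries of F2 mouse testis DNA, 5 control and 5 arsenic, were compared. Per the labels' protocols DNA came from phenol-chloroform extraction and column purification. Per the submitters' processing notes the authors used Trim Galore 0.6.5, Bismark 0.22.3, methylKit 1.22.0 and mm10. The deposited table holds read counts (coverage, methylated and unmethylated) per cytosine and strand, and lists only cytosines with at least 10 reads in all 10 libraries, which leaves out regions that any 1 library covered poorly. For the restriction enzyme and for duplicate reads, the treatment is not given in the sources used.

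Levels of ends, bodies, tiles and windows are methylated reads as a percent of all reads pooled over a feature's cytosines. Levels by distance from the gene end are instead means of the percentages of single cytosines, each weighted equally. Genes came from RefSeq GRCm38.p6, whose table has no exons, so exonic and intronic positions are not used here. A quasi-binomial logistic model with a group term was fitted to all ends, bodies and 1 kb tiles with at least 3 CpGs, with dispersions squeezed by limma 3.58.1 (R 4.3.3), not under 1, an F test and Benjamini-Hochberg adjustment over all features. Python 3.11.15, numpy 2.4.6, pandas 2.3.3 and scipy 1.17.1 did the rest. The scripts were tested on simulated data. Intervals and limits cover counting error only, and take counts at neighbouring cytosines as independent.

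Named genes were, per family, the 3 smallest p-values (2 in Gata) at ends and in bodies, all without overlap between groups, ends at 20% or more, bodies under 20%, the 3 largest SDs, and up to 4 tiles in each direction. The members and lists were chosen with earlier results of these data known. Alternatives were other windows, CpG and coverage minimums, pooled reads, limma on log2 ratios with an offset of 0.5, a replicate block, and left-out libraries.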

Additional observations from a re-analysis of the deposited data

Results flagged for a closer look

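In 7 of the 94 groups of 5 libraries looked at, 1 library stood apart from the other 4. Its gap to the nearest library exceeded 0.71 of the group's range. Chance gives this in about 1 in 20 groups of normally distributed values that were not picked by those values. The 7 flagged groups belong to genes named for small p-values in these same data, and several have low, skewed levels. That rate therefore does not apply here, and how many flags chance would give was not tested. At the ends of Sox21 arsenic library 5 had 12.8%, with the other arsenic libraries at 3.18% to 4.97%. At the ends of Foxd3 arsenic library 4 had 3.501%, and the others at most 1.77%. At the ends of Eomes control library 1 had 2.58%, and the others at most 1.34%. At the ends of Tbx15 arsenic library 3 had 6.34%. At the ends of Gata5 control library 5 had 12.3%, and the others at most 1.11%. In the body of Foxd2 arsenic library 5 had 5.04%, and in the body of Gata6 it had 29.96%.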

How the results depend on the processing

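No member was called under any alternative run. Limma called 1 gene end and 1 tile in the whole table, neither of them a member's, where the quasi-binomial model called 0. Of the alternative values of named genes and tiles, 474 kept the direction of the difference and 8 reversed it. The 474 include the limma and replicate block runs, which use the same pooled difference as the main run and so could not reverse it. The Tbx ends difference between groups (0.702 by the mean) was -0.84 by the median over members, an alternative chosen after seeing the data. The gap from Tbx to Gata at ends (10.3) was 5.21 with reads pooled and 14.8 in 500 bp windows. The Fox body difference between groups (-0.472) was -1.65 with reads pooled. The gap from Sox to Gata in bodies (6.10) was 12.8 at 20 reads or more, 28.8 with reads pooled, 8.37 with at least 10 CpGs, 4.13 with bodies from 500 bp and -7.36 by the median. Without control libraries 4 and 5 the differences of Gata6 ends (-0.495), Gata5 ends (-1.004) and Gata6 body (-0.766) were 0.244, 1.07 and 1.62. With 1 library left out they ranged from -0.755 to 0.0539, from -2.10 to 1.15 and from -2.57 to 0.304. The cause was not tested.

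Unadjusted p-values under 0.05 were found in 4 member ends (5.97% of all ends), and in 2 without control libraries 4 and 5 (5.72%). They were found in 2 at the end with more CpGs (6.44%), 2 of 32 starts (6.77% of all starts) and 5 of 48 ends with 20 reads (6.24%). With 1 library left out 2 to 5 member ends had one (5.40% to 6.52% of all ends). In bodies the 2 became 5 without control libraries 4 and 5 (5.30% of all bodies), 1 with at least 10 CpGs (5.41%) and 1 with 20 reads (5.08%). With 1 library left out 2 to 4 member bodies had one (5.03% to 6.16% of all bodies). Of member tiles, limma gave 25 (5.13% of all tiles) against 35 (5.8%), and 9 of 205 tiles with at least 10 CpGs had one (6.40% of all such tiles). Libraries that share a replicate number did not deviate together (correlations of -0.0150 to 0.0314), so the numbers were not taken to pair them. With a replicate block 6 ends, 4 bodies and 46 tiles of members had an unadjusted p under 0.05, as had 8.30% of all ends, 6.03% of all bodies and 6.68% of all tiles, against 5.97%, 5.45% and 5.8% without it. With the block 0 members were called, and the lowest adjusted p was 0.436, 0.766 and 0.252. Few CpGs limit several members, among them the ends of Sox1 (3 CpGs, 55 to 118 reads) and the bodies of Foxl2 (4 CpGs, 157 to 322 reads) and Sox14 (6 CpGs, 130 to 258 reads).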
